A study of Mus musculus with 28 samples.

Results

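Genes of mitochondrial fatty acid oxidation and of the tricarboxylic acid (TCA) cycle, with the transcriptional regulators of both, were followed in mouse embryonic fibroblasts (MEFs) driven towards induced cardiomyocytes by 6 combinations of transcription factors. The list held 42 genes named by symbol: enzymes that carry fatty acids into mitochondria, the enzymes of beta-oxidation, the flavoproteins that pass on its electrons, the TCA cycle enzymes, genes of pyruvate and lactate handling, and 4 regulators. The rule uses symbols and no measured value, but the list was drawn up with earlier results of these data known. Of the 42 genes, 41 were read from a probe set of their own, taken as the probe set of highest mean, among 19938 genes in all. Cpt1b, the muscle form of carnitine palmitoyltransferase, shared its probe set with another gene symbol and was not analysed here. A further gene, Ppara, lay below the array median on all 28 arrays, so 40 genes were tested among 12211.

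Fatty acids enter mitochondria as carnitine esters, made by Cpt1a outside, carried across the inner membrane by Slc25a20 and turned back to acyl-CoA by Cpt2. Each turn of beta-oxidation then shortens the chain and yields acetyl-CoA, which citrate synthase (Cs) feeds into the TCA cycle, whose reduced cofactors supply the respiratory chain. The adult heart draws most of its energy from fatty acids, and the switch from glucose to fatty acid use is a known part of cardiomyocyte maturation. Pdk4 phosphorylates and shuts pyruvate dehydrogenase, which holds pyruvate out of the cycle, and PGC-1 alpha (Ppargc1a) is a coactivator of mitochondrial biogenesis.

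The 6 combinations were DMNT (MYOCD, MEF2C, NKX2.5 and TBX5; 4 arrays), DMT (MYOCD, MEF2C and TBX5; 4), HNGMT (Hand2, NKX2.5, GATA4, MEF2C and TBX5; 3), HGMT (Hand2, GATA4, MEF2C and TBX5; 3), NGMT (NKX2.5, GATA4, MEF2C and TBX5; 6) and GMT (GATA4, MEF2C and TBX5; 5). They were set against 0F, MEFs without any factor (3 arrays). All 6 carried lentiviral rtTA, tetO-driven factors and a reporter in which a troponin T promoter drives the calcium sensor GCaMP5 and zeocin resistance. They were kept in reprogramming medium with 2 µg/mL doxycycline and were collected at day 21, after 7 days in 300 µg/mL zeocin. Selection therefore left bulk cultures of cells chosen for activity of a cardiac promoter, without single-cell resolution. The protocol describes 0F as non-transduced MEFs collected at day 21, although another label of the same arrays names them as selected. Every difference from 0F thus holds factors, viruses, medium and selection together, which cannot be told apart.

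Values are log2 signal. The arrays fell into 3 sets by the distribution of their values, with array medians of 6.68 to 6.75 in set 1, 6.86 to 6.95 in set 2 and 7.64 to 7.65 in set 3. Set 1 held 0F, 2 GMT and 3 NGMT arrays; set 2 held 3 each of DMT, HNGMT, HGMT, NGMT and GMT; and set 3 held 4 DMNT arrays and DMT replicate 4. The labels call the replicates biological, and the number of arrays limits the precision. A change was called at a Benjamini-Hochberg adjusted p under 0.05 over the 12211 genes, by limma, and comparisons were kept inside a set unless stated. Cardiac contractile markers summed to a linear signal of 22937 to 25053 in GMT and 22002 to 23149 in NGMT, against 3985 to 4174 in 0F, and 13 of 17 tested were called higher in GMT and in NGMT. Genes were tested if above the array median on at least 3 arrays, which a marker can meet through the groups where it is high. Counts of called markers are thus partly set in advance. Of 17 fibroblast markers, 16 lay above the array median on all 3 0F arrays. HNGMT replicate 1 stood apart, with 146 genes more than 2-fold off the other arrays of its group and a mean absolute distance of 0.25, against 0.03 to 0.16 on the other arrays.

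Promoter windows are shown for Pdk4, the gene that changed most, and for Sdha and Etfdh, since most members moved together. Sdha and Etfdh were picked from the members with a motif in their window, among which Sdha held matches at the most positions. Each window holds 300 bases around the annotated start, most of them before it (RefSeq, GRCm38.p6). Windows existed for 36 of the 42 genes, and both strands were searched for 4 motifs, of which no match overlapped a match of another motif. Capitals mark matches to the motif of NRF1, a factor of nuclear genes for mitochondrial proteins, spelled GCGCA, any base, GCGC. Sdha encodes the flavoprotein of succinate dehydrogenase, and Etfdh passes electrons of beta-oxidation to ubiquinone.
Pdk4 (chr6:5496229-5496528, minus strand): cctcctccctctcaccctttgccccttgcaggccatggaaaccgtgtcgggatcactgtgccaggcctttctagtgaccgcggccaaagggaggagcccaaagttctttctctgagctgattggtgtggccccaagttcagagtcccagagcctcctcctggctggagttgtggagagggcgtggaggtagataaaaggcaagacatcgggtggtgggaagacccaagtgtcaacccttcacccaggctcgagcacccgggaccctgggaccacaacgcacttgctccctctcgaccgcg
Sdha (chr13:74350191-74350490, minus strand): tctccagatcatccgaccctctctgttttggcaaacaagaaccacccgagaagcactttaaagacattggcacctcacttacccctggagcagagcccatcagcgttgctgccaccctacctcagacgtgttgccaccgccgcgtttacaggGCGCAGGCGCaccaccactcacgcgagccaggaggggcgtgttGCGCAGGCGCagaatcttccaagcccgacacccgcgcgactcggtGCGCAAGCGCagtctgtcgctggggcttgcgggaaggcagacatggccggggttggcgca
Etfdh (chr3:79628718-79629017, minus strand): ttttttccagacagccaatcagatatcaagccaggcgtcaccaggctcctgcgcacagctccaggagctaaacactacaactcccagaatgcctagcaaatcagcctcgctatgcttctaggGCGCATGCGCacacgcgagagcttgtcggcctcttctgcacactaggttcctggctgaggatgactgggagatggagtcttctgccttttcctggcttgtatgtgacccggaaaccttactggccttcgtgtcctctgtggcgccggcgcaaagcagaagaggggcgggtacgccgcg
The Sdha window held 3 matches, at positions 153, 196 and 241 from its 5′ end, and the Etfdh window held 1, at position 123, which reads the same on both strands. The Pdk4 window held none of the 4 motifs. Some genes, such as Ogdh, have several windows, and a gene was counted if any of them held a match. In all, 7 of the 36 genes (19.4%) had the NRF1 motif, Dld, Etfb, Etfdh, Ppara, Sdha, Sdhd and Sucla2, against 5.19% of 27025 genes. The ERR alpha motif TNAAGGTCA was found for 1 gene, Sdhd (2.78%, against 1.43% of all genes). The direct repeat of AGGTCA with 1 base between, bound by PPAR with RXR, was found for 0 of 36 genes, against 0.0481% of all genes. The MEF2 motif, CTA and TAG with 4 bases between, was found for 1 gene, Ldhb (2.78%, against 4.23%). A match is letters in a window, and binding was not measured.

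Against 0F, most of the pathway was lower in GMT and in NGMT cells, while Pdk4, Acaa2, Cpt1a and Slc25a20 were higher. In GMT cells 29 of the 40 tested members were called lower, against a background of 22.3% of all genes, and 4 were called higher, against 34.2%. In NGMT cells 32 were called lower (background 23.3%) and 4 higher (background 34.9%). The median member difference was -0.40 in GMT and -0.44 in NGMT, where the median over all genes was 0.05 in GMT and 0.04 in NGMT. GMT and NGMT were set against the same 3 0F arrays, so the comparisons share their controls. The groups did not overlap for 29 members lower and 4 higher in GMT (all genes 29.7% and 44.1%), and for 32 lower and 4 higher in NGMT (all genes 27.9% and 41.2%). In both, Slc25a20 overlapped despite its call, and Esrra did not overlap although it was not called.

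**Figure D1:**
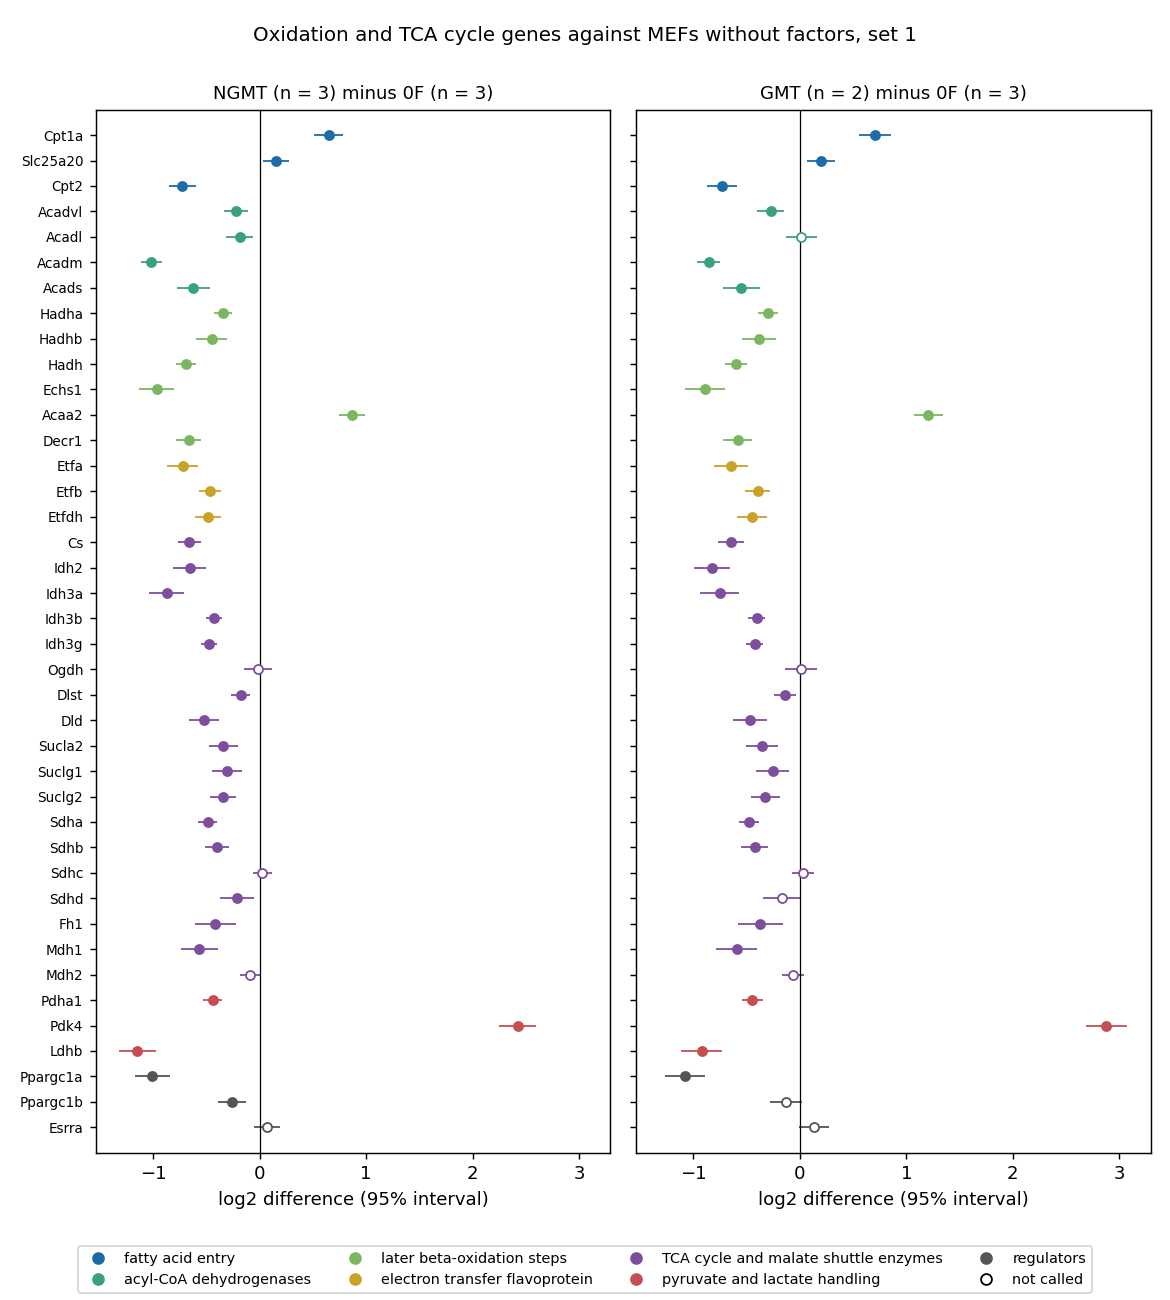
Log2 difference from 0F in set 1 (x axis, 95% interval of the limma fit) for the 40 tested genes in rows, NGMT on the left and GMT on the right; colour gives the role, filled points were called and open points were not. Most points lie left of 0, and Pdk4 lies farthest right, at 2.42 in NGMT and 2.88 in GMT.

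Among the entry genes, the outer and inner steps moved apart. Cpt1a, the rate-limiting step of entry, had 10.98 and 10.98 in GMT and 10.94, 10.90 and 10.93 in NGMT, against 10.23, 10.27 and 10.33 in 0F. It rose by 0.71 ± 0.07 (SE) in GMT (adjusted p = 1.1e-08) and by 0.65 ± 0.07 in NGMT (adjusted p = 6.9e-09). Slc25a20, the carrier, had 9.61 and 9.82 in GMT and 9.68, 9.59 and 9.73 in NGMT, against 9.42, 9.49 and 9.64 in 0F. The carrier's arrays overlapped between groups, and its rise was small (0.20 ± 0.07 in GMT, adjusted p = 0.013; 0.15 ± 0.06 in NGMT, adjusted p = 0.032). It was not called in GMT without GMT replicate 2 (0.09) or without 0F replicate 1 (0.15), nor in NGMT without any of 4 arrays, 0F replicates 1 and 2 and NGMT replicates 1 and 3 (0.10 to 0.14). Cpt2, the inner transferase, had 9.69 and 9.74 in GMT and 9.68, 9.78 and 9.70 in NGMT, against 10.31, 10.48 and 10.55 in 0F. Every GMT and NGMT array lay below every 0F array for Cpt2, which was -0.73 ± 0.07 in GMT and -0.73 ± 0.06 in NGMT.

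The acyl-CoA dehydrogenases, which make the opening oxidation of each turn for chains of different length, were lower in part. Acadm, for medium chains, had 10.47 and 10.53 in GMT and 10.28, 10.38 and 10.35 in NGMT, against 11.26, 11.39 and 11.41 in 0F. Its differences, -0.86 ± 0.05 in GMT (adjusted p = 1.6e-12) and -1.02 ± 0.05 in NGMT (adjusted p = 7.2e-15), were among the largest falls of the list. Acads, for short chains, was -0.55 in GMT and -0.63 in NGMT, and Acadvl, for very long chains, was -0.27 in GMT and -0.22 in NGMT. Acadl, for long chains, was called in NGMT alone (-0.19, adjusted p = 0.012; not called without 0F replicate 3, at -0.13, or NGMT replicate 1, at -0.15), and stood at 0.01 in GMT with a 95% interval of -0.13 to 0.16. The NGMT to GMT difference for Acadl itself was not called.

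Of the later steps, 5 of 6 genes were lower in each combination and Acaa2 was higher. Echs1, the enoyl-CoA hydratase, had 9.41 and 9.61 in GMT and 9.37, 9.43 and 9.50 in NGMT, against 10.27, 10.43 and 10.51 in 0F. It fell by 0.89 on the log2 scale in GMT and by 0.97 in NGMT, and no array of either group reached the 0F range. Acaa2, the thiolase that releases acetyl-CoA, had 12.16 and 12.26 in GMT and 11.78, 11.91 and 11.92 in NGMT, against 10.90, 11.02 and 11.09 in 0F. The thiolase rose 2.31-fold in GMT (1.21 ± 0.07, adjusted p = 1.6e-13) and 1.82-fold in NGMT (0.87 ± 0.06, adjusted p = 8.9e-12). Hadh, a hydroxyacyl-CoA dehydrogenase, was -0.60 in GMT and -0.69 in NGMT, and Decr1, a reductase for unsaturated chains, was -0.59 in GMT and -0.67 in NGMT. Hadha and Hadhb, the subunits of the trifunctional protein, were -0.30 and -0.39 in GMT and -0.35 and -0.45 in NGMT. 

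All 3 electron transfer flavoprotein genes were lower in each combination. Etfa, a subunit, had 9.68 and 9.77 in GMT and 9.57, 9.66 and 9.72 in NGMT, against 10.27, 10.43 and 10.42 in 0F. All GMT and NGMT arrays lay below the 0F arrays, by -0.65 in GMT and -0.73 in NGMT on average. Etfb, the other subunit, was -0.40 in GMT and -0.47 in NGMT, and Etfdh was -0.45 in GMT and -0.49 in NGMT.

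Of the 18 TCA cycle and malate shuttle enzymes, 14 were called lower in GMT, 15 in NGMT and 0 higher in either. Idh3a, the catalytic subunit of the NAD-linked isocitrate dehydrogenase, had 10.40 and 10.46 in GMT and 10.21, 10.25 and 10.48 in NGMT, against 11.04, 11.24 and 11.27 in 0F. It was -0.76 ± 0.09 in GMT (adjusted p = 1.0e-07) and -0.87 ± 0.08 in NGMT (adjusted p = 1.3e-09). Idh2, the NADP-linked mitochondrial enzyme, had 9.71 and 9.74 in GMT and 10.03, 9.97 and 9.68 in NGMT, against 10.53, 10.52 and 10.60 in 0F. All GMT and NGMT arrays of both genes lay below the 0F arrays, with NGMT spread widest for Idh2. Cs was -0.65 in GMT and -0.66 in NGMT. Sdha was -0.48 in GMT and -0.49 in NGMT, and Sdhb, the iron-sulphur subunit, was -0.42 in GMT and -0.40 in NGMT.

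The remaining cycle genes moved by unequal amounts. Mdh1, the cytosolic malate dehydrogenase, was -0.59 in GMT and -0.57 in NGMT. Its mitochondrial partner Mdh2 was not called, at -0.07 (95% interval -0.17 to 0.04) in GMT and -0.10 (adjusted p = 0.074) in NGMT. Ogdh, the decarboxylase of the oxoglutarate dehydrogenase complex, was 0.01 (-0.14 to 0.16) in GMT and -0.02 (-0.15 to 0.12) in NGMT. The other subunits of that complex were lower, Dld at -0.47 in GMT and -0.52 in NGMT, and Dlst at -0.14 in GMT and -0.18 in NGMT. Sdhc, a membrane anchor of succinate dehydrogenase, was 0.03 (-0.07 to 0.13) in GMT and 0.02 (-0.07 to 0.12) in NGMT. Sdhd, the other anchor, was -0.17 in GMT (adjusted p = 0.10) and -0.22 in NGMT (adjusted p = 0.018; -0.18 to -0.21 and not called without any of 0F replicates 2 and 3 and NGMT replicates 1 and 2). Fh1, Sucla2, Suclg1, Suclg2, Idh3b and Idh3g lay between -0.26 (Suclg1) and -0.43 (Idh3g) in GMT and between -0.31 (Suclg1) and -0.48 (Idh3g) in NGMT, all called. Without GMT replicate 1, Suclg1 (-0.12), Fh1 (-0.31) and Dlst (-0.10) were not called in GMT, and neither was Dlst without 0F replicate 3 (-0.09).

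Pyruvate handling held the largest change of the list. Pdk4 had 12.18 and 12.40 in GMT and 11.80, 11.84 and 11.86 in NGMT, against 9.24, 9.38 and 9.62 in 0F. The kinase rose 7.36-fold in GMT (2.88 ± 0.09, adjusted p = 8.9e-18) and 5.36-fold in NGMT (2.42 ± 0.08, adjusted p = 2.1e-17). Pdha1, a subunit of the enzyme that Pdk4 inhibits, was -0.45 in GMT and -0.44 in NGMT. Ldhb, the lactate dehydrogenase form of the heart, had 9.40 and 9.60 in GMT and 9.32, 9.37 and 9.13 in NGMT, against 10.38, 10.44 and 10.45 in 0F. It was -0.92 ± 0.09 in GMT and -1.15 ± 0.08 in NGMT, with no overlap of arrays.

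Among the regulators, Ppargc1a had 6.59 and 6.52 in GMT and 6.54, 6.73 and 6.61 in NGMT, against 7.57, 7.71 and 7.62 in 0F. It fell by 1.08 on the log2 scale in GMT and by 1.01 in NGMT. The GMT and NGMT signals lay near the array medians of set 1, where signal is hard to tell from background. Ppargc1b, a related coactivator, was near background, with 6.67 and 6.75 in GMT and 6.56, 6.58 and 6.58 in NGMT, against 6.70, 6.89 and 6.93 in 0F. It was called lower in NGMT (-0.26, adjusted p = 0.0011) and not in GMT (-0.13, adjusted p = 0.14). Esrra, the nuclear receptor ERR alpha that works with both coactivators, was not called, at 0.13 (95% interval -0.01 to 0.27) in GMT and 0.07 (-0.06 to 0.19) in NGMT. Ppara, the fatty acid receptor, was not tested and had 6.01 and 6.04 in GMT and 5.97, 5.87 and 6.03 in NGMT, against 6.29, 6.53 and 6.47 in 0F.

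Hadhb, Suclg2, Ldhb and Ppargc1a have a further probe set each, dimmer than the one used, which differed from 0F the same way. In GMT it gave -0.39 for Hadhb, -0.30 for Suclg2, -0.85 for Ldhb and -1.05 for Ppargc1a. Whether a probe set of these genes also reads a near-identical copy elsewhere in the genome was not tested.

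Of 72 other genes of the same pathways, 16 were called higher and 39 lower in GMT (background 34.2% and 22.3%). In NGMT 16 were higher and 38 lower (background 34.9% and 23.3%). Pparg, the receptor of adipocyte formation, was -3.17 in GMT and -3.18 in NGMT. Pcx, which makes oxaloacetate from pyruvate, was -2.14 in GMT and -2.06 in NGMT. Acaca, which makes the malonyl-CoA that inhibits entry of fatty acids, was -2.09 in GMT and -2.03 in NGMT. Rxrg, a retinoid receptor, was -1.91 in GMT and -1.96 in NGMT. Slc25a10, the dicarboxylate carrier, was -1.71 in GMT and -1.73 in NGMT, and Me1, a malic enzyme that yields NADPH, was -1.55 in GMT and -1.49 in NGMT. These largest falls include genes of fat synthesis.

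Adipocyte and macrophage markers moved in the same comparisons. All 17 tested adipocyte markers were called lower in GMT and in NGMT, and the 19 measured summed to 3737 to 3874 in GMT and 3906 to 4389 in NGMT, against 53758 to 57241 in 0F. Of these 19, 12 lay below the array median on every GMT and NGMT array, against 1 or 2 on each 0F array. Of 12 tested macrophage markers, 11 were called lower, and 15 summed to 1550 to 1741 in GMT and 1550 to 1566 in NGMT, against 7545 to 10932 in 0F. A marker could be tested through high signal on the 3 0F arrays alone. The counts of called adipocyte and macrophage markers are thus partly set by the filter, while the sums cover every measured marker. The 41 members summed to 59509 to 63969 in GMT and 56725 to 58358 in NGMT, against 67145 to 74283 in 0F. Of 6 tested mesothelial and epithelial markers 5 were called higher in GMT and in NGMT, and of 16 fibroblast markers 12 were called lower in GMT and 9 in NGMT, with 4 higher in each. In bulk cultures fewer cells of a type and less RNA per cell cannot be told apart, and the part of these cell types in the members' differences was not tested.

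**Figure D2:**
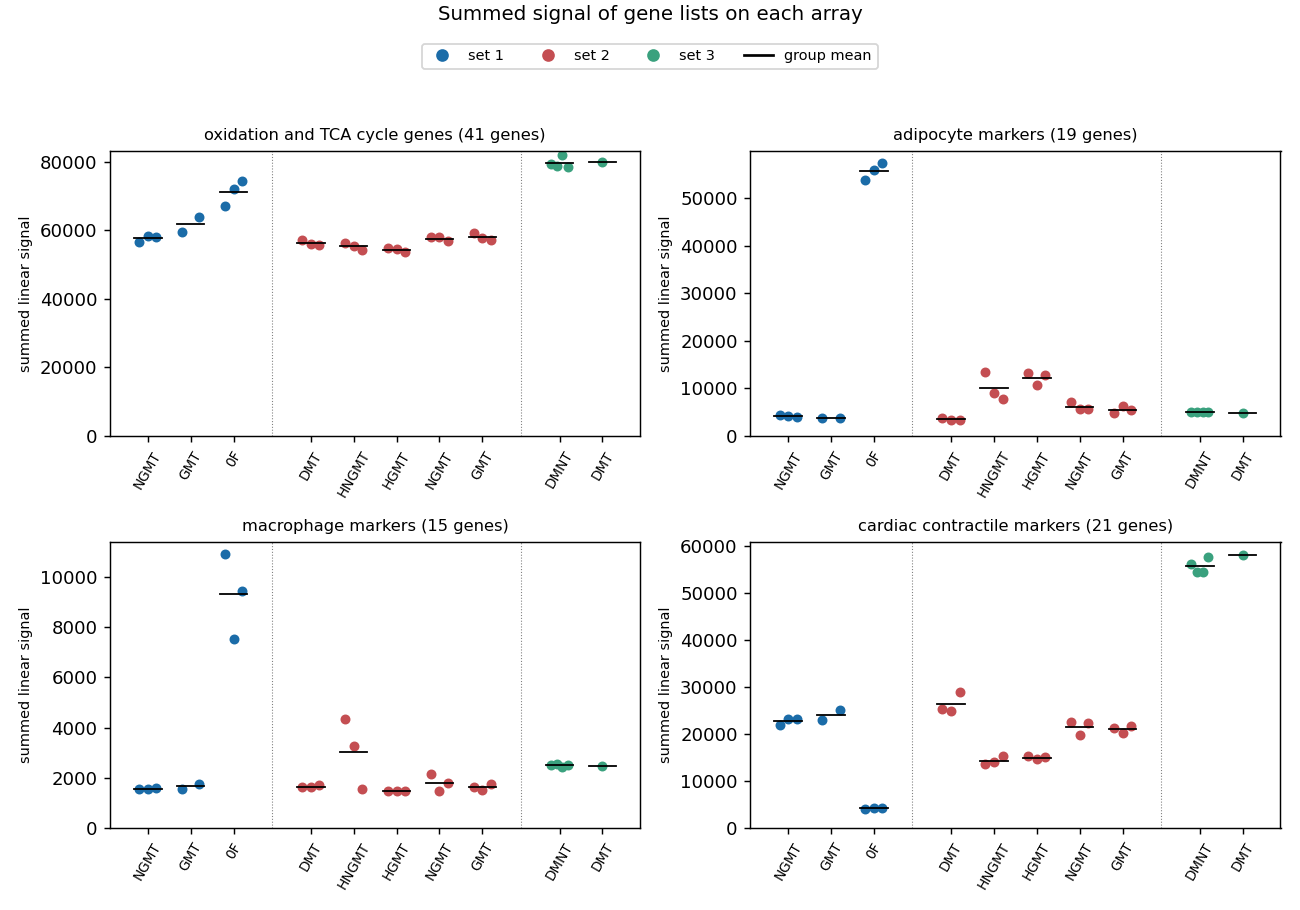
Summed linear signal (y axis, from 0) of the 41 members and of 3 marker lists on each array (points), with group means (lines), by array set and group; levels are comparable only inside a set. In set 1 the adipocyte sum is at most 4389 on GMT and NGMT arrays and at least 53758 on 0F arrays, while the member sums lie far closer together.

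The question of what NKX2.5 adds to GMT could be asked in both of the first sets. Few genes of any kind were called, so the low counts do not set the members apart. In set 1, 2 of 40 were called lower in NGMT (background 2.39%) and 0 higher (background 2.31%). Pdk4 was -0.46 ± 0.09 (adjusted p = 0.0037) and Acaa2 was -0.34 ± 0.07 (adjusted p = 0.0025), on the arrays given above, with no overlap between groups. Without GMT replicate 2 neither was called (-0.35 for Pdk4 and -0.29 for Acaa2), and without NGMT replicate 3 the count was 4. In set 2, 0 of 40 were called by limma (background 0.0246% lower and 0.00819% higher). An unadjusted p under 0.05 was met by 2 of 40 members and by 367 of all 12211 genes. The 2 members were again the kinase and the thiolase. Pdk4 had 10.42, 10.53 and 10.72 in NGMT, against 10.80, 10.69 and 10.95 in GMT (-0.26, 95% interval -0.43 to -0.09, adjusted p = 0.97), and these arrays overlapped. Acaa2 had 11.64, 11.56 and 11.67 in NGMT, against 11.91, 11.75 and 11.98 in GMT (-0.25, 95% interval -0.38 to -0.13, adjusted p = 0.27), without overlap. No member's NKX2.5 effect was called different between the sets (0 of 40, background 0.639%). At an unadjusted p under 0.05 by limma there was 1 member, and 849 of all 12211 genes. For the other members the half-width of the 95% interval in set 2 was 0.07 to 0.19. Cpt1a was 0.01 (-0.13 to 0.14), Ldhb was -0.05 (-0.22 to 0.12), Ppargc1a was -0.03 (-0.20 to 0.14), Ppargc1b was -0.11 (-0.25 to 0.02) and Esrra was -0.07 (-0.19 to 0.06).

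Among the other pathway genes, 2 of 72 were lower in NGMT in set 1, a share near that of all genes (2.39%). They were Prkaa2, a catalytic subunit of AMP kinase (-0.32), and Acsl5, an acyl-CoA synthetase (-0.26). Without GMT replicate 2 or without NGMT replicate 1 neither was called (-0.27 and -0.27 for Prkaa2, -0.19 and -0.22 for Acsl5), nor was Acsl5 without NGMT replicate 2 (-0.25). In set 2, 0 of 72 were called by limma, with 3 at an unadjusted p under 0.05 (367 of all 12211 genes).

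Cells given Hand2 had less Pdk4 and Acaa2, and small falls were called for several TCA cycle enzymes. The shares of members called lower lay near those of all genes with and without NKX2.5, so the lower counts do not set the members apart. In HGMT against GMT, 7 of 40 members were called lower (background 12.7%) and 1 higher (background 11.2%). The arrays did not overlap for 16 members lower and 3 higher (all genes 21.7% and 18.1%). Pdk4 had 9.75, 9.52 and 9.68 in HGMT, against 10.80, 10.69 and 10.95 in GMT, a difference of -1.16 ± 0.08 (adjusted p = 2.5e-10). Acaa2 had 11.55, 11.60 and 11.54 in HGMT, against 11.91, 11.75 and 11.98 in GMT (-0.32 ± 0.06, adjusted p = 3.4e-04). Neither gene's groups overlapped. Cpt2 was the member called higher, with 10.17, 10.13 and 10.12 in HGMT, against 9.99, 9.91 and 9.95 in GMT (0.19 ± 0.06, adjusted p = 0.029). It was called without GMT replicate 3 (0.21), but not without any other array of these groups (0.17 to 0.20).

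The 5 cycle enzymes called lower in HGMT differed by small amounts. Suclg1, a subunit of succinyl-CoA ligase, had 9.27, 9.22 and 9.18 in HGMT, against 9.50, 9.39 and 9.55 in GMT (-0.26). Sdhb had 10.11, 10.02 and 9.98 in HGMT, against 10.25, 10.30 and 10.18 in GMT (-0.21). Dlst had 9.98, 9.90 and 9.93 in HGMT, against 10.18, 10.07 and 10.08 in GMT (-0.17). In each of these 3 genes all HGMT arrays lay below all GMT arrays. Mdh2 had 11.77, 11.85 and 11.81 in HGMT, against 12.06, 11.94 and 11.90 in GMT (-0.16). Sdhc had 10.44, 10.54 and 10.47 in HGMT, against 10.66, 10.66 and 10.58 in GMT (-0.15). Without GMT replicate 3, whose Mdh2 and Dlst values were the highest of their group, 5 members were called, and Dlst (-0.14), Mdh2 (-0.11) and Sdhc (-0.14) were not among them. Sdhc was also not called without GMT replicate 4 (-0.14), HGMT replicate 1 (-0.13) or HGMT replicate 3 (-0.14), nor Mdh2 without HGMT replicate 1 (-0.14).

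In HNGMT against NGMT, 10 of 40 members were called lower (background 20.9%) and 0 higher (background 7.67%). Fewer members were called when replicate numbers entered the fit as a block, as given in the closing section. The arrays did not overlap for 13 members lower and 1 higher (all genes 24.4% and 8.99%). This comparison has no array in common with HGMT against GMT. The 7 members called lower there were all among the 10 here (100% of the HGMT list and 70% of the HNGMT list), where over all genes 1178 lower calls were shared (75.9% and 46.2%). Pdk4 had 9.74, 9.66 and 9.70 in HNGMT, against 10.42, 10.53 and 10.72 in NGMT (-0.86 ± 0.08, adjusted p = 6.2e-08), the only one of the 10 past 0.25. Acaa2 had 11.35, 11.42 and 11.45 in HNGMT, against 11.64, 11.56 and 11.67 in NGMT (-0.22 ± 0.06, adjusted p = 0.0089). For both genes every HNGMT array lay below every NGMT array.

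The other lower genes in HNGMT were Sdhb (-0.22), Cpt1a (-0.21), Suclg1 (-0.20), Slc25a20 (-0.19), Mdh2 (-0.16), Dlst (-0.16), Cs (-0.15) and Sdhc (-0.15). Sdhb had 10.13, 10.03 and 9.97 in HNGMT, against 10.28, 10.29 and 10.23 in NGMT. Suclg1 had 9.37, 9.24 and 9.15 in HNGMT, against 9.43, 9.48 and 9.44 in NGMT. Slc25a20 had 9.47, 9.59 and 9.56 in HNGMT, against 9.73, 9.77 and 9.68 in NGMT. The arrays of these 3 genes did not overlap, and for Suclg1 the gap was narrow. Mdh2 had 11.68, 11.82 and 11.82 in HNGMT, against 12.01, 11.86 and 11.94 in NGMT. Dlst had 9.93, 9.99 and 9.96 in HNGMT, against 10.14, 10.11 and 10.11 in NGMT. Both were also lower on each HNGMT array than on any NGMT array, while Cpt1a was not. Cpt1a had 10.51, 10.87 and 10.88 in HNGMT, against 10.96, 11.05 and 10.87 in NGMT. The lowest of these Cpt1a values is that of HNGMT replicate 1, the array that stood apart, and without it Cpt1a was at -0.09 and Cs at -0.07. Without that array 6 members were called, Acaa2 (-0.19), Dlst (-0.14), Pdk4 (-0.88), Sdhb (-0.26), Sdhc (-0.14) and Suclg1 (-0.25). The count was 6 without NGMT replicate 4 and 5 without NGMT replicate 5. Suclg1 was not called without any of NGMT replicates 4, 5 and 6 and HNGMT replicates 2 and 3 (-0.14 to -0.21). Cs was not called without any of these NGMT arrays (-0.14 to -0.16), nor Sdhc without NGMT replicate 5 (-0.12).

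The Hand2 difference was not called unequal with and without NKX2.5 for any member (0 of 40, and 0 of all 12211 genes by limma; background 0.0%). At an unadjusted p under 0.05 by limma there were 4 of 40 members and 1157 of all 12211 genes, near-equal shares. Pdk4 led these members, with an interaction term of 0.31 (95% interval 0.06 to 0.55, adjusted p = 0.51). In HNGMT against HGMT 0 of 40 members were called (background 0.369% lower and 0.123% higher). An unadjusted p under 0.05 by limma was met by 10 of 40 members and by 3098 of all 12211 genes, near-equal shares. Fh1, fumarase, was largest at 0.31 (95% interval 0.12 to 0.50, adjusted p = 0.082). Pdk4 was 0.05 (-0.12 to 0.22), Cpt1a -0.20 (-0.33 to -0.06), Ldhb 0.03 (-0.15 to 0.20), Ppargc1a 0.07 (-0.10 to 0.24) and Esrra -0.16 (-0.29 to -0.04). The count of called members rested on single arrays: it was 7 without HNGMT replicate 2 and 10 without HNGMT replicate 3, which both keep replicate 1, and 0 without replicate 1. Fh1 had 10.68, 10.13 and 10.04 in HNGMT, against 9.96, 10.01 and 9.96 in HGMT, so replicate 1 held most of the difference.

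The regulators were not called in either comparison that adds Hand2. Ppargc1a was -0.14 (95% interval -0.31 to 0.03) in HGMT against GMT and -0.04 (-0.21 to 0.13) in HNGMT against NGMT. Ppargc1b was 0.01 (-0.12 to 0.14) in HGMT against GMT and 0.02 (-0.11 to 0.15) in HNGMT against NGMT. Ldhb was 0.02 (-0.15 to 0.19) in HGMT against GMT and 0.10 (-0.07 to 0.27) in HNGMT against NGMT. Esrra was -0.01 (-0.13 to 0.12) in HGMT against GMT and -0.10 (-0.23 to 0.02) in HNGMT against NGMT. For Ppargc1a and Ldhb these intervals are far from the differences from 0F in set 1.

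Of the 72 other pathway genes, 8 were called higher and 9 lower in HGMT against GMT, and 3 higher and 16 lower in HNGMT against NGMT. These shares are near those of all genes given above for each comparison, so the counts do not set the list apart. Acsl4, an acyl-CoA synthetase that prefers long unsaturated chains, was -0.78 in HGMT against GMT and -0.74 in HNGMT against NGMT. Got1, the cytosolic aspartate transaminase of the malate shuttle, was -0.47 in HGMT and -0.59 in HNGMT, while Pparg was 0.60 in HGMT and 0.44 in HNGMT. Further called genes were Pcx (0.43), Acot13 (-0.36) and Slc22a5 (0.33) in HGMT, and Slc27a1 (-0.39), Pprc1 (-0.38) and Got2 (-0.30) in HNGMT. Without HNGMT replicate 1, Pprc1 was -0.19 and Got2 was -0.17, both still called. Acot13 was not called in HGMT without any of 4 arrays, GMT replicates 3 and 5 and HGMT replicates 2 and 3 (-0.33 to -0.34), and Slc22a5 was not called without GMT replicate 3 (0.22) or HGMT replicate 1 (0.25).

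Markers of other cell types differed in the same comparisons. Adipocyte markers summed to 10601 to 13291 in HGMT, against 4858 to 6373 in GMT, with 15 of 17 tested called higher. They summed to 7660 to 13520 in HNGMT, against 5649 to 7075 in NGMT, with 7 of 17 called higher. Macrophage markers summed to 1536 to 4336 in HNGMT, against 1464 to 2141 in NGMT, with 6 of 12 called higher. Cardiac markers summed to 14594 to 15267 in HGMT, against 20203 to 21785 in GMT, and to 13608 to 15373 in HNGMT, against 19756 to 22431 in NGMT. Mesothelial and epithelial markers summed to 2263 to 2563 in HGMT, against 1396 to 1508 in GMT, with 3 of 6 tested called higher and 1 lower, and to 1862 to 2368 in HNGMT, against 1322 to 1601 in NGMT, with 3 higher and 2 lower. Endothelial markers summed to 496 to 551 in HGMT, against 333 to 363 in GMT, and to 479 to 498 in HNGMT, against 354 to 362 in NGMT. Both tested were called higher in each. All 6 measured lay below the array median on every GMT and NGMT array, against 4 on HGMT and 5 on HNGMT arrays. The tested endothelial markers passed the filter only through other groups, Hand2 groups among them, so their calls are partly set by it. The part of any of these lists in the members' differences was not tested.

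**Figure D3:**
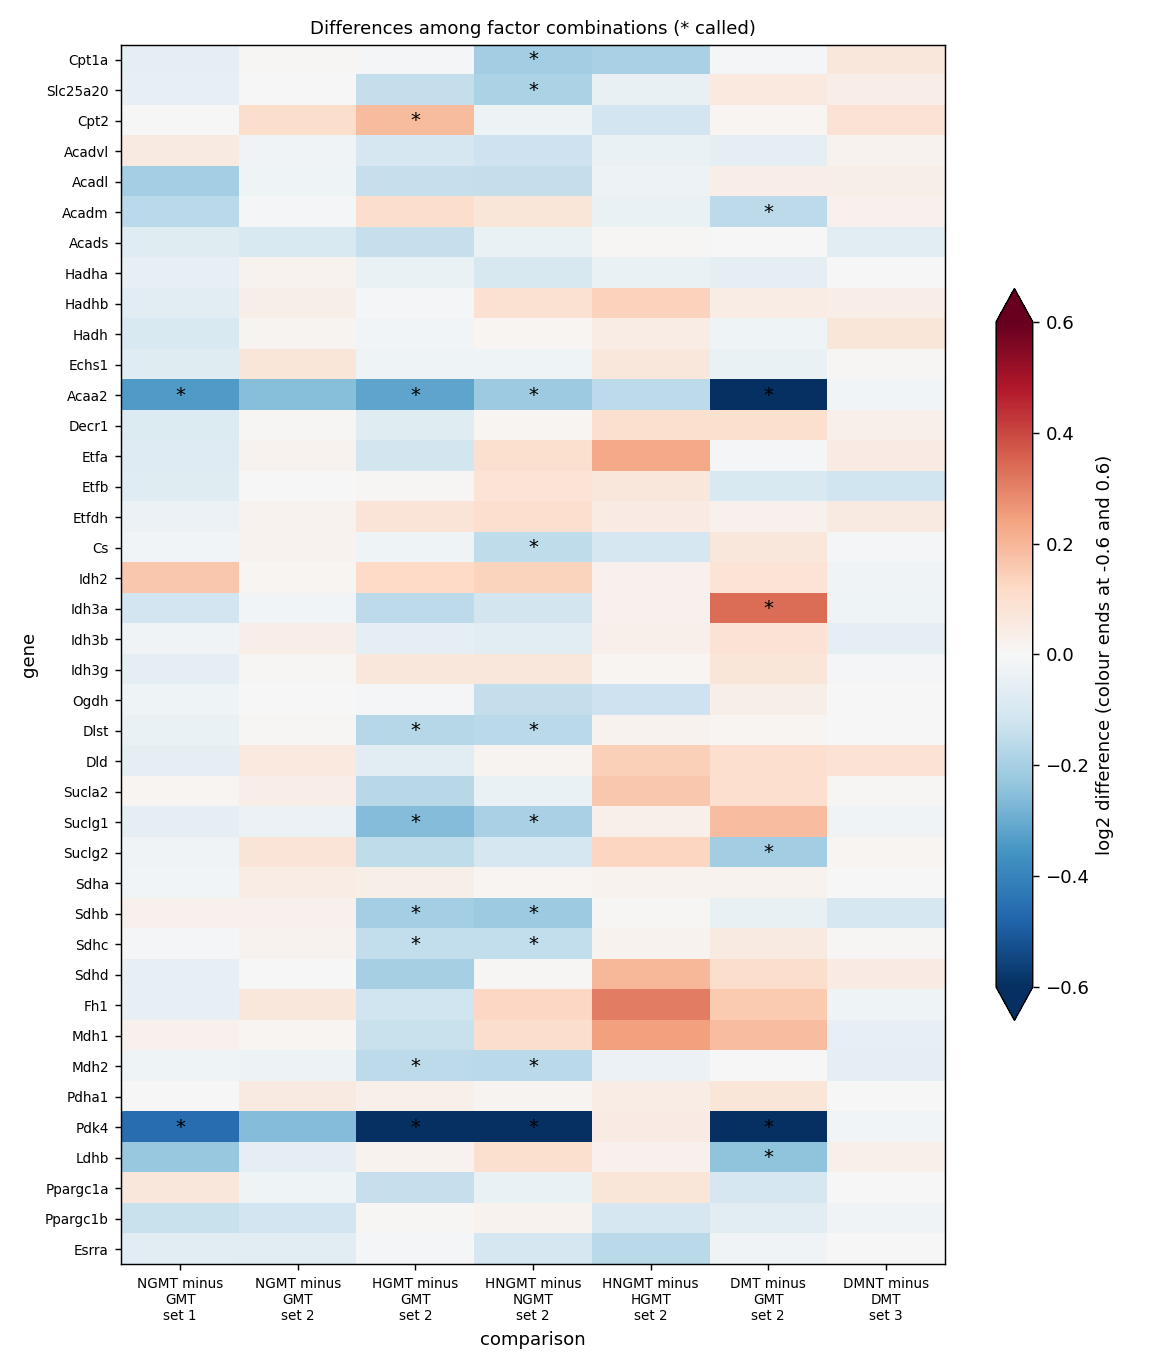
Log2 difference (colour, red higher and blue lower in the group named first on the x axis, ends at -0.6 and 0.6) of the 40 tested genes (y axis) in the 7 within-set comparisons among factor combinations; stars mark calls. Blue runs across the Pdk4 and Acaa2 rows outside the HNGMT to HGMT and DMNT to DMT columns, and 17 of the 18 calls in the 2 Hand2 columns are lower.

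With MYOCD in place of GATA4, Acaa2 changed by more than any other member. The share of members called either way lay near that of all genes, so the count does not set the members apart. In DMT against GMT in set 2, 5 of 40 members were called lower (background 8.15%) and 1 higher (background 9.11%), and the median member difference was 0.02. The arrays did not overlap for 7 members lower and 8 higher (all genes 13.9% and 17.5%). Acaa2 had 10.62, 10.60 and 10.49 in DMT, against 11.91, 11.75 and 11.98 in GMT. It was 2.48-fold lower in DMT (-1.31 ± 0.06, adjusted p = 3.6e-14), and the nearest arrays of the groups were more than 1 log2 unit apart. Pdk4 had 10.15, 10.19 and 10.15 in DMT, against 10.80, 10.69 and 10.95 in GMT (-0.65 ± 0.08, adjusted p = 2.6e-06), again with no overlap.

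Idh3a was the member called higher in DMT, with 10.83, 10.68 and 10.81 in DMT, against 10.52, 10.37 and 10.43 in GMT (0.34 ± 0.08, adjusted p = 0.0034). Ldhb had 9.17, 9.07 and 9.01 in DMT, against 9.40, 9.35 and 9.23 in GMT (-0.24 ± 0.08, adjusted p = 0.043). Suclg2 had 9.53, 9.50 and 9.40 in DMT, against 9.72, 9.72 and 9.62 in GMT (-0.21). Acadm had 10.41, 10.37 and 10.32 in DMT, against 10.52, 10.51 and 10.55 in GMT (-0.16). These groups did not overlap, but the last 3 genes were not called without DMT replicate 3 or without GMT replicate 3, which leaves 3 called members. Cpt1a was -0.01 (95% interval -0.14 to 0.13), Ppargc1a -0.10 (-0.27 to 0.07), Ppargc1b -0.06 (-0.20 to 0.07) and Esrra -0.02 (-0.14 to 0.10).

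DMT against GMT shares its GMT arrays with HGMT against GMT and with NGMT against GMT in set 2. Side by side on those arrays, Pdk4 was -0.65 in DMT, -1.16 in HGMT and -0.26 in NGMT, and Acaa2 was -1.31 in DMT, -0.32 in HGMT and -0.25 in NGMT. Of the other pathway genes 9 of 72 were higher and 5 lower in DMT, shares near those of all genes (9.11% and 8.15%). Pparg was -1.19, Pdk1, a pyruvate dehydrogenase kinase, was 0.61, Acsl4 was -0.38, Me2, a mitochondrial malic enzyme, was 0.36, Oxct1, which uses ketone bodies, was 0.36 and Nrip1, a corepressor of metabolic genes, was -0.35. Pdk1 rested on single arrays, at 0.34 without GMT replicate 3, 0.48 without DMT replicate 2 and 0.53 without GMT replicate 4, none called, and at 0.96 without GMT replicate 5. Adipocyte markers summed to 3323 to 3699 in DMT, against 4858 to 6373 in GMT, with 9 of 17 tested called lower and 2 higher. Cardiac contractile markers summed to 24940 to 28889 in DMT, against 20203 to 21785 in GMT, with 8 of 17 tested called higher and 4 lower. Skeletal muscle markers summed to 2071 to 2399 in DMT, against 774 to 838 in GMT, with 7 of 10 below the array median on every array of both groups and 1 of 3 tested called higher. The part of these lists in the members' differences was not tested.

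**Figure D4:**
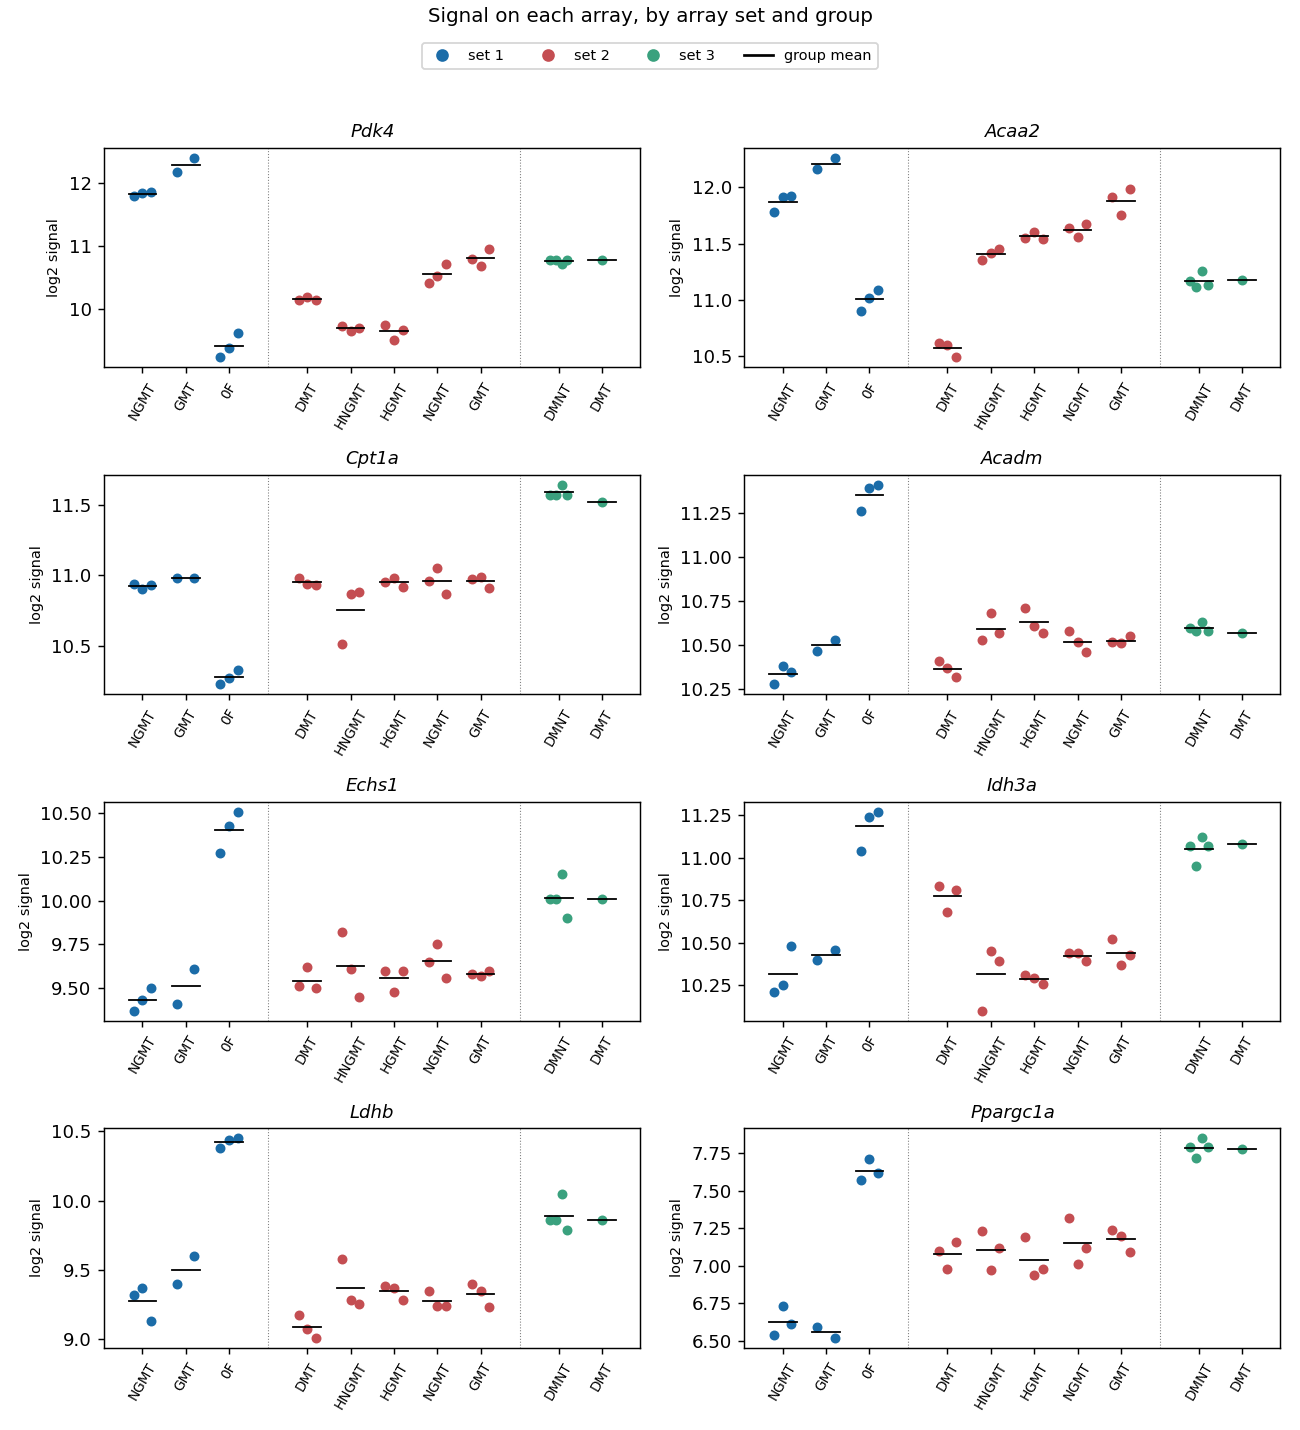
Log2 signal (y axis) of 8 members on each array (points) with group means (lines), by array set and group (x axis); scales differ between panels and levels are comparable only inside a set. In set 1 the 0F arrays stand apart from GMT and NGMT for all 8 genes, and in set 2 the DMT arrays stand apart for Acaa2 at 10.49 to 10.62.

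NKX2.5 beside MYOCD could be read only in set 3, from 4 DMNT arrays and a lone DMT array that was taken to vary like the other groups. No member was called by limma (0 of 40, and 0 at an unadjusted p under 0.05; background 0.0573% higher and 0.00819% lower). Pdk4 had 10.78, 10.78, 10.72 and 10.78 in DMNT, against 10.78 in DMT. Acaa2 had 11.17, 11.11, 11.26 and 11.13 in DMNT, against 11.18 in DMT. Differences over the 40 members lay between -0.12 (Etfb) and 0.09 (Cpt2), and the half-width of their 95% intervals was 0.10 to 0.26. Arrays of set 3 repeat values: counting exact matches of the deposited values at all their digits, 21 of the 40 tested members had tied values and 14 had at least 3 equal ones, and 16.6% to 31.3% of values over all tested genes were equal between a pair of these arrays, against at most 3.71% in set 1 and 1.24% in set 2. The spread between these 5 arrays may thus be smaller than that between cultures.

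HGMT, HNGMT, DMT and DMNT share no set with 0F and were compared with it through GMT and NGMT (and DMT) arrays, assuming that sets differ by a constant for each gene. By that fit 33 members were lower and 3 higher in HGMT (background 21.2% and 29.9%), and 31 lower and 3 higher in HNGMT (23.2% and 26.5%). In DMT 29 were lower and 3 higher (21.8% and 34.6%), and in DMNT 25 were lower and 3 higher (15.0% and 26.4%). All 4 comparisons share the 0F arrays. Quantile normalization over all arrays followed by a plain difference from 0F also called 30 of the lower members in HGMT, 28 in HNGMT, 26 in DMT and 23 in DMNT. That direct difference has no term for the set, so combination and array set cannot be told apart in it.

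Several large falls of set 1 were called by both routes, with sizes that differed between routes by gene. Echs1 was -1.00 in HGMT, -0.93 in HNGMT, -1.02 in DMT and -1.01 in DMNT through the sets, and -1.01, -0.92, -1.03 and -1.04 directly. Ldhb was -1.00 in HGMT, -0.98 in HNGMT, -1.26 in DMT and -1.23 in DMNT through the sets, and -1.24, -1.20, -1.43 and -1.19 directly. Acadm was -0.84 in HGMT, -0.88 in HNGMT, -1.10 in DMT and -1.08 in DMNT through the sets, and -0.91, -0.96, -1.26 and -1.42 directly. Ppargc1a was -1.16 in HGMT, -1.09 in HNGMT, -1.12 in DMT and -1.12 in DMNT through the sets, and -0.81, -0.73, -0.74 and -0.78 directly, so its direct values were the smaller in each. Cs had the larger values directly, at -0.69 in HGMT, -0.80 in HNGMT, -0.60 in DMT and -0.61 in DMNT through the sets, and -1.03, -1.14, -0.89 and -0.75 directly. For Hadh the routes lay farthest apart in DMT, -0.69 through the sets and -1.17 directly, and in DMNT, -0.62 through the sets and -1.19 directly. All of these were called by both routes.

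Cpt1a was called higher by both routes in each combination, at 0.67 in HGMT, 0.47 in HNGMT, 0.66 in DMT and 0.73 in DMNT through the sets, and 0.51, 0.31, 0.53 and 0.69 directly. Pdk4 depended on the route. It was 1.61 in HGMT, 1.66 in HNGMT, 2.12 in DMT and 2.10 in DMNT through the sets, but 0.07, 0.13, 0.60 and 0.72 directly, none of these called. Pdk4 in GMT lay 1.48 lower on set 2 than on set 1 arrays, and in NGMT 1.28 lower, whereas the array medians were 0.17 and 0.16 higher. Whether these cultures or their processing differed was not tested. The arrays therefore do not fix whether Pdk4 was above 0F in these 4 combinations, or by how much. Acaa2 was 0.84 in HGMT and 0.69 in HNGMT through the sets, and 0.39 and 0.20 directly, the last not called. In DMT and DMNT it was not called through the sets (-0.15 and -0.17), and was called lower directly (-0.59 and -0.48).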

How the data were processed

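The authors deposited a matrix of log2 signal for 35556 probe sets on 28 arrays, and MAS5 is the only tool in the submitters' processing notes. The sources used here do not give summarization or scaling. Annotation paired 21789 probe sets with 1 symbol, 1621 with several and 12146 with none, and only the first kind was used. Sets of arrays were derived by single linkage of the mean absolute distance between sorted values (below 0.1 log2). The deposited values were used unchanged. Genes with signal above the array median on at least 3 arrays were tested with limma 3.58.1 (R 4.3.3; lmFit, contrasts, eBayes with trend) on 1 mean per group within set (18 residual degrees of freedom), and across sets with group and set as terms (19). Tests were two-sided. Members and lists were chosen with earlier results of these data known. All members were named, with array values for members called in the rarer direction, up to 8 of largest called difference, and (where called or against 0F) the regulators, Cpt1a, Pdk4 and Ldhb; up to 6 called genes of the other pathway list were named per comparison. Sequences are RefSeq's. The fit was tested on simulated data. Alternatives are given in the closing section.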

Additional observations from a re-analysis of the deposited data

Results flagged for a closer look

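In the 4 DMNT arrays of set 3, the only group with 4 arrays in a set, 11 of 41 genes had an array far from the others by Dixon's criterion, which chance alone meets in about 1 of 20 groups. In most of these the other 3 arrays held equal values, so that a small gap meets the criterion. Replicate 3 was the distant array for Cpt1a (11.64, others 11.57), Hadhb (10.75, others 10.70), Etfb (12.00, others 11.95), Etfdh (10.35, others 10.24), Pdk4 (10.72, others 10.78) and Ppargc1b (7.55, others 7.63). Replicate 2 was distant for Fh1 (10.57, others 10.63 to 10.64) and Mdh1 (11.59, others 11.60). Replicate 1 was distant for Sdhd (10.86, others 10.83) and Ogdh (11.59, a gap below the second decimal). Replicate 4 was distant for Acads (10.24, others 10.27 to 10.28).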

How the results depend on the processing

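Over 270 values of single genes, 4723 recomputed values kept direction and call, 189 lost the call, 11 gained it and 5 reversed. The reversals, all by the direct difference after quantile normalization, were Acadvl (0.081), Dlst (0.051) and Sdhb (0.15) in DMT against 0F, and Acadvl (0.23) and Sdhb (0.38) in DMNT against 0F. The cause was not tested. With group and set as terms, 13 members were called in HGMT against GMT and 2 in NGMT against GMT in set 2, which then draws on set 1 too. A fit on set 3 alone called 1 in DMNT against DMT. With a replicate block from title numbers, 2 were called in HNGMT against NGMT, 34 in GMT against 0F and 36 in NGMT against 0F. No HNGMT array shares a title number with an NGMT array of set 2, so that block does not pair these groups. With numbers from the descriptions, 5 were called in HNGMT against NGMT and 5 in HGMT against GMT. Arrays of equal title number had a median correlation of deviations of 0.02 (21 pairs, -0.26 to 0.41), against -0.02 for pairs of unequal number. With so few arrays per group these deviations are a weak check, so pairing is neither shown nor excluded. Leaving out each array in turn gave 30 to 33 called members in GMT against 0F, 33 to 36 in NGMT against 0F, 0 to 4 in NGMT against GMT in set 1, 0 to 1 in set 2 (1 without GMT replicate 4), 5 to 10 in HGMT against GMT, 5 to 12 in HNGMT against NGMT, 0 to 10 in HNGMT against HGMT and 3 to 6 in DMT against GMT. Across sets it gave 34 to 37 in HGMT, 32 to 36 in HNGMT, 29 to 33 in DMT and 25 to 29 in DMNT, and 0 in DMNT against DMT and in both interactions. Probe set means, no filter, no trend and quantile normalization kept each count of called members within 1.5 times. GMT has 2 arrays in set 1, and DMT 1 in set 3.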
